A study of Mus musculus with 3 samples.

Results

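The genes of 10 liver nuclear receptors that sense lipids, bile acids and foreign compounds were followed through liver RNA sequencing of male C57BL/6 mice aged 14 weeks. These were Ppara, Pparg, Rxra, Nr1h3, Nr1h4, Nr0b2, Nr1i2, Nr1i3, Hnf4a and Nr5a2, taken by symbol from the deposited tables, and made up 10 of the 41799 genes listed there. The 3 libraries came from mice on a high-fat diet (HFD) that were gavaged with DfCS-Ib at 40 mg/kg, from mice on the HFD alone, and from mice on regular chow, with 1 library per group. DfCS-Ib is a code name for what the series calls a sulfated oligosaccharide, and it was dissolved in distilled water. The HFD was shared by the first 2 groups. The labels give 8 mice per group, and neither the number of mice behind each library nor whether the other groups were gavaged is stated in them.

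Nuclear receptors are transcription factors, most of which bind DNA and change partners among coactivators and corepressors when a small lipophilic ligand enters their ligand-binding domain. PPAR alpha, PPAR gamma, the liver X receptor LXR alpha, the bile acid receptor FXR, the pregnane receptor PXR and the constitutive androstane receptor CAR act on DNA mainly as heterodimers with a retinoid X receptor, whereas HNF4 alpha binds as a homodimer and LRH-1 as a monomer. SHP, the product of Nr0b2, lacks a DNA-binding domain and represses other receptors. In liver this group of proteins governs fatty acid oxidation, sterol and bile acid balance and drug clearance, and HNF4 alpha maintains hepatocyte identity.

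The DfCS-Ib, HFD and chow libraries held 10969699, 12279537 and 11028671 counts. Counts were scaled to a common library size (CPM) with TMM factors. A ratio between libraries is the ratio of scaled counts, and the range in parentheses after it is its exact 95% interval from the split of the counts, which covers counting error only. With 1 library per group there is no replicate check, no p-value was computed, and each difference describes these libraries and not the conditions. A gene was counted as higher or lower when its log2 ratio of CPM plus 1 was at least 1 in size, which is 2-fold; 13153 genes averaging 1 CPM or more entered that count. Levels of different genes are compared in RPKM, which is scaled for gene length. Hepatocyte markers were abundant, with summed levels of 113978, 102663 and 130433 CPM for 6 genes in the DfCS-Ib, HFD and chow libraries, most of it from albumin. Within that list, Tat had 5250, 2034 and 4871 CPM and Cps1 had 78.02, 48.4 and 112 CPM, both lowest in the HFD library. No chromosome position was read for Cps1, so its level is uncertain. The 6 markers did not move together: Ttr had 3797, 5633 and 3426 CPM, and the ratios for HFD over chow were 0.754 for Alb, 1.07 for Apoa1 and 0.985 for Serpina1a. Of endothelial and stellate cell markers, Lyve1 (24.1, 9.95 and 22.95 CPM) and Col3a1 (21.2, 23.2 and 9.94 CPM) differed by 2-fold between some libraries. In whole liver, fewer cells of a type and less RNA per cell cannot be told apart.

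All 10 receptor genes passed the filter on low values. Hnf4a was the most abundant in each library, at 247, 181 and 274 RPKM in the DfCS-Ib, HFD and chow libraries, and Rxra came next at 84.6, 72.1 and 81.2 RPKM. Nr1i3, the gene of CAR, was the third in each library, at 57.2, 59.5 and 57.6 RPKM. Nr5a2, the gene of LRH-1, was ninth with 14.5, 14.8 and 14.9 RPKM, and Pparg was last with 1.55, 3.72 and 1.38 RPKM. The 5 genes between them lay close together in RPKM and changed places: Ppara ranked 4 of 10 in the DfCS-Ib library, 8 in the HFD library and 6 in the chow library. RPKM rests on the deposited gene length, which for Ppara was 10573 bases against 3836 exon bases in the GENCODE M21 annotation. For Nr1i3 these were 2347 and 4414 bases. The ranks, shares and RPKM ratios between genes therefore depend on the gene models, whereas ratios of the same gene between libraries do not. Hnf4a alone made up 38.7%, 34.5% and 42.8% of the summed RPKM of the 10 genes in the same 3 libraries. Set among 49 listed nuclear receptor genes of the mouse, the 10 genes held 79.5%, 75.3% and 81.0% of the receptors' summed RPKM. Ppard and Rxrb were among the receptors listed at 0 in each library. Such a 0 does not show that a gene is silent, so these shares could be too high.

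**Figure D1:**
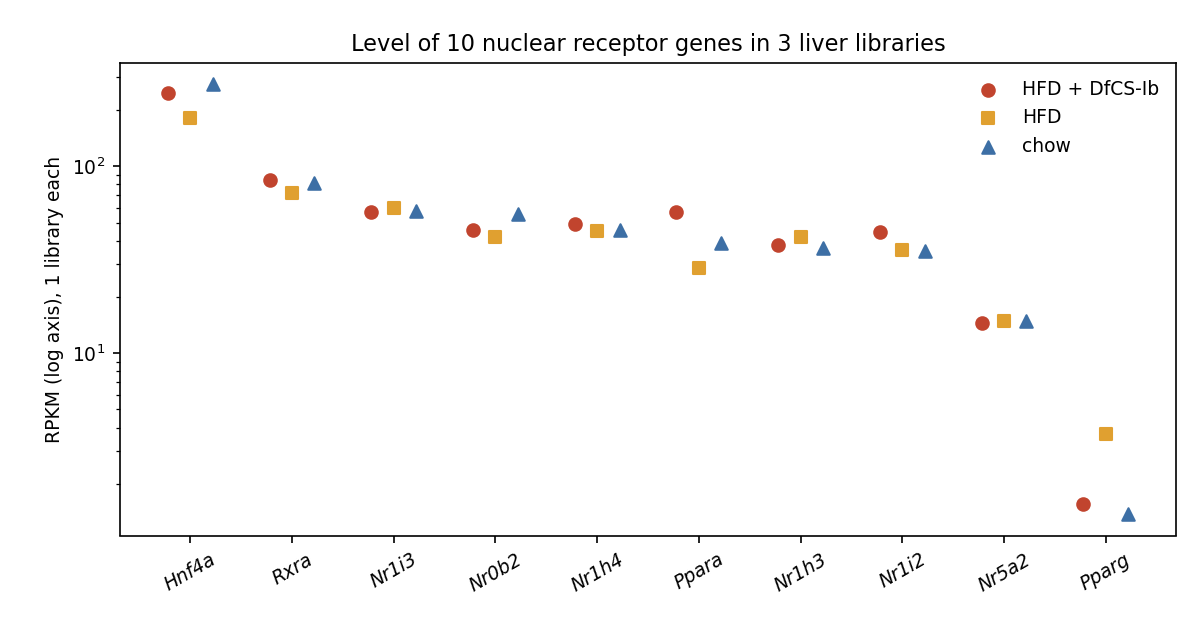
RPKM of the 10 receptor genes (log axis) in the HFD + DfCS-Ib, HFD and chow libraries, 1 point per library, ordered by the chow value. Hnf4a is highest at 247, 181 and 274 RPKM, Ppara is lowest in the HFD library and Pparg is highest there.

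Ppara, on chromosome 15 (85728192 to 85806851 of mm10, plus strand), encodes PPAR alpha, the fasting-activated receptor for fatty acids that drives hepatic fatty acid oxidation. It had 6623 counts in the DfCS-Ib library, 3700 in the HFD library and 4528 in the chow library, or 617, 288 and 421 CPM. The DfCS-Ib library was the highest and the HFD library the lowest, and all 3 lay apart by more than counting error. The ratio was 2.15 (2.06 to 2.24) for DfCS-Ib over HFD, 0.683 (0.654 to 0.714) for HFD over chow and 1.47 (1.41 to 1.52) for DfCS-Ib over chow. Ppara was the only one of the 10 genes at least 2-fold higher in the DfCS-Ib library than in the HFD library, where 2.46% of all analysed genes were. On the authors' RPKM plus 1 it fell just short of 2-fold. The RPKM of Ppara was 0.675, 0.395 and 0.478 times that of its partner Rxra in the DfCS-Ib, HFD and chow libraries. These values rest on the deposited Ppara length of 10573 bases and do not settle which of these genes had more transcripts.

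Pparg, on chromosome 6 (115360879 to 115490404, plus strand), encodes PPAR gamma, the adipocyte receptor whose expression in liver favours fat storage. It was the least abundant of the 10 genes and lay the other way from Ppara, with 56 counts in the DfCS-Ib library, 150 in the HFD library and 50 in the chow library, or 5.22, 11.7 and 4.65 CPM. The HFD library stood above the other 2, which did not differ beyond counting error. The ratio was 0.448 (0.323 to 0.612) for DfCS-Ib over HFD, 2.51 (1.81 to 3.53) for HFD over chow and 1.12 (0.753 to 1.68) for DfCS-Ib over chow. At 56, 150 and 50 counts these intervals are wide and reach below 2-fold. Pparg was the one gene of the 10 at least 2-fold lower in DfCS-Ib than in HFD (2.02% of all analysed genes) and the one at least 2-fold higher in HFD than in chow (3.47%). On RPKM plus 1 both of these log2 ratios fell short of 1, since a few RPKM weigh little there. The Ppara to Pparg ratio in RPKM was 36.8 in the DfCS-Ib library, 7.67 in the HFD library and 28.2 in the chow library, and its size depends on the deposited gene lengths. Among adipocyte markers, Adipoq, Plin1, Lep and Retn had 0 or 1 count in each library, so the defining markers of fat tissue were at or near 0. Cfd, the adipsin gene of the same list, had 3, 77 and 1 counts in the DfCS-Ib, HFD and chow libraries. Fabp4, the remaining marker and also a listed PPAR gamma target, had 112, 77 and 73 counts, or 10.4, 5.98 and 6.78 CPM. It was highest in the DfCS-Ib library, unlike Cfd and Pparg. The summed level of the 6 markers was 10.7, 12.1 and 6.88 CPM, most of it from Fabp4 in the DfCS-Ib and chow libraries.

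The RefSeq promoter windows of these 2 genes (GRCm38.p6, the 250 bases before each listed start, 5′ to 3′ on the gene's strand) are shown because they are the members past 2-fold; capitals mark the searched motifs named below. Ppara has 1 listed start, which lies inside the deposited gene model, and Pparg has 3.
Ppara, chr15:85735526-85735775, plus strand: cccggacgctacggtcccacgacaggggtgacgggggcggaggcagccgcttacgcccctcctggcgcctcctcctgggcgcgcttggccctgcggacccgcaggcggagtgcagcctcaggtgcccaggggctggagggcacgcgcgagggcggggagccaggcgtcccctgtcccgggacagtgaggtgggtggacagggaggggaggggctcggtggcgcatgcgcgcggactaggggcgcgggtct
Pparg first start, chr6:115360894-115361143, plus strand: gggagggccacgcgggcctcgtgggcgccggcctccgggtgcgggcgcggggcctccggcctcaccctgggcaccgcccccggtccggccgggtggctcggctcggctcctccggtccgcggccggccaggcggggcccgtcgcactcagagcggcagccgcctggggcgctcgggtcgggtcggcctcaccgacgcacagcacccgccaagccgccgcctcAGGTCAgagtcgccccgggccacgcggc
Pparg second start, chr6:115362099-115362348, plus strand: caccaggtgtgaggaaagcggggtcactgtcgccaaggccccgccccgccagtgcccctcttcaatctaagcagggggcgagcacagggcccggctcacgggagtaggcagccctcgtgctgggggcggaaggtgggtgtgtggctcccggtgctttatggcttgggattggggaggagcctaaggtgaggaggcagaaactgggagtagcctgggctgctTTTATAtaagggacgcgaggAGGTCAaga
Pparg last start, chr6:115421816-115422065, plus strand: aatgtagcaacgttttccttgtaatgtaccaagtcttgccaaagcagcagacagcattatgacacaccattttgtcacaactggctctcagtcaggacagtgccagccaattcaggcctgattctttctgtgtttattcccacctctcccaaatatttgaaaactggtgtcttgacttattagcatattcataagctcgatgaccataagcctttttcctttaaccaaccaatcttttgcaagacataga
The Ppara window and the first Pparg window are rich in G and C, at 76.4% and 82.4% against a median of 52.4% over 32851 RefSeq windows, whereas the last Pparg window has 40.8%. Motifs were searched on both strands: AGGTCA, the core that nuclear receptors bind, its direct repeat with 1 base between (the DR1 element, which contains the core), the LRH-1 type TCAAGG, the E-box CACGTG, the TATA-box sequence TATAAA, the sequence GTTAAT and the HNF4 type CAAAGTCCA. AGGTCA begins 28 bases before the first Pparg start and 9 bases before the second, and a reverse-strand TATAAA begins 29 bases before the second. The Ppara window holds none of the 7 motifs. All 10 receptor genes had at least 1 window, 16 in all; AGGTCA occurs in 5 of them, of 4 genes, and in 14% of all windows. TATAAA occurs in 3 of the 16 windows and in 12.4% of all, and the DR1 element in 0 of 16 and in 0.0335% of all. The counts in the files are per gene and do not separate the starts.

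Many PPAR alpha target genes, chiefly enzymes of fatty acid oxidation and omega-hydroxylation, were lowest in the HFD library, as Ppara was. Of 22 listed targets 21 were analysed, and Angptl4 was listed at 0 in each library. No chromosome position was read for Angptl4, and this 0 does not show that it is silent. In DfCS-Ib over HFD, 7 passed 2-fold upwards and 0 downwards (2.46% and 2.02% of all analysed genes), with a median log2 ratio of 0.65 against -0.01 for all genes. In HFD over chow, 1 passed upwards and 7 downwards (3.47% and 2.27% of all genes), with a median of -0.46 against 0.02; without TMM factors or with the authors' RPKM, 2 passed upwards. Cpt1a, the gate of mitochondrial fatty acid oxidation, had 911, 363 and 945 CPM in the DfCS-Ib, HFD and chow libraries. Cyp4a14, a fatty acid omega-hydroxylase, had 4251, 674 and 6035 CPM in the DfCS-Ib, HFD and chow libraries, and its relatives Cyp4a10 and Cyp4a31 had ratios of 6.84 and 10.9 for DfCS-Ib over HFD. These Cyp4a genes are close copies, and how reads were divided among them is uncertain. Fgf21, a fasting hormone gene, had 101, 10 and 25 counts in the same order of libraries. Not every target followed: Fabp1, a fatty acid carrier, had 1677, 2134 and 704 CPM, highest in the HFD library. Vnn1, a pantetheinase, had 95.3, 60.4 and 29.9 CPM, lowest in the chow library. The HFD library is shared by both comparisons, so the opposite signs of their medians are not independent.

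PPAR gamma target genes were split. Of 9 listed targets 7 were analysed. In DfCS-Ib over HFD 2 were at least 2-fold higher and 1 lower (2.46% and 2.02% of all analysed genes). In HFD over chow 1 was higher and 2 lower (3.47% and 2.27%). Fitm1, which takes part in lipid droplet formation, followed Pparg, with 11.7, 36.6 and 6.13 CPM in the DfCS-Ib, HFD and chow libraries. Cidec and Plin4, genes of lipid droplet proteins that PPAR alpha can also induce, lay the other way: Cidec had 15.3, 5.44 and 19.5 CPM and Plin4 had 24.98, 9.01 and 32.7 CPM. With the authors' RPKM, 1 was higher in DfCS-Ib over HFD. The median log2 ratio of the list was 0.71 for DfCS-Ib over HFD and -0.16 for HFD over chow.

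Rxra, on chromosome 2 (27676324 to 27763319, plus strand), encodes the retinoid X receptor alpha, the shared partner of most of the other 9. It had 5295, 5053 and 5110 counts in the DfCS-Ib, HFD and chow libraries, or 494, 393 and 475 CPM. The HFD library was the lowest, and the DfCS-Ib and chow libraries did not differ beyond counting error, with a ratio of 1.04 (0.99995 to 1.08). DfCS-Ib over HFD was 1.26 (1.21 to 1.31) and HFD over chow 0.827 (0.795 to 0.860). Of the other 2 retinoid X receptor genes, Rxrb was listed at 0 in each library and Rxrg had 28, 80 and 29 counts, highest in the HFD library as Pparg was, with log2 ratios of -0.999 and 0.966 for DfCS-Ib over HFD and HFD over chow that just missed the 2-fold mark. A 0 in these tables does not show that Rxrb is silent.

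Nr1h3, on chromosome 2 (91184061 to 91202834, minus strand), encodes LXR alpha, an oxysterol receptor that promotes cholesterol efflux and fatty acid synthesis. It hardly varied, with 901, 1114 and 875 counts in the DfCS-Ib, HFD and chow libraries, or 83.98, 86.6 and 81.3 CPM. No pair of libraries differed beyond counting error, and the ratios were 0.970 (0.888 to 1.06) for DfCS-Ib over HFD and 1.06 (0.974 to 1.16) for HFD over chow. LXR target genes formed separate sets beside this flat receptor. The lipogenic targets Srebf1, Scd1 and Fasn, which are also under SREBP control, were far higher in the HFD library: Srebf1 had 27.3, 204 and 17.6 CPM, Scd1 787, 7048 and 1320 CPM and Fasn 69.3, 512 and 64.8 CPM in the DfCS-Ib, HFD and chow libraries. The sterol efflux transporter gene Abca1 had 263, 277 and 323 CPM, and Abcg5, which exports sterols into bile, 99.8, 99.7 and 84.7 CPM. Of the 11 targets, all analysed, 0 were at least 2-fold higher and 3 lower in DfCS-Ib over HFD (2.46% and 2.02% of all analysed genes). In HFD over chow 4 were higher and 1 lower (3.47% and 2.27%). Pltp, the phospholipid transfer protein gene, was the fourth higher one, with 30.5, 59.5 and 24.3 CPM. Kupffer cells, the liver's macrophages, also express Nr1h3 and Pparg. The summed level of 8 macrophage and Kupffer cell markers was 614, 345 and 281 CPM. All 8 were higher in the DfCS-Ib than in the HFD library, where 6382 of the 13153 analysed genes were. Their median log2 ratio was 0.84, and 2 were at least 2-fold higher and 0 lower (2.46% and 2.02% of all analysed genes). All 8 were also higher in the DfCS-Ib than in the chow library, where 6697 of the 13153 genes were. Marco, a scavenger receptor gene, had 99, 33 and 49 counts, and Emr1, the F4/80 gene, 431, 248 and 188 counts. Their part in the values of Nr1h3 and Pparg was not tested.

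Nr1h4, on chromosome 10 (89454234 to 89533645, minus strand), encodes FXR, the bile acid receptor, and Nr0b2, on chromosome 4 (133553390 to 133556536, plus strand), encodes SHP, which FXR induces and which represses bile acid synthesis. Nr1h4 had 1381, 1431 and 1296 counts in the DfCS-Ib, HFD and chow libraries, or 129, 111 and 120.4 CPM, a narrow range. Its ratio was 1.16 (1.07 to 1.25) for DfCS-Ib over HFD and 0.923 (0.856 to 0.996) for HFD over chow. Nr0b2 had 556, 576 and 683 counts, or 51.8, 44.8 and 63.5 CPM, highest in the chow library and lowest in the HFD library. The ratio was 1.16 (1.03 to 1.30) for DfCS-Ib over HFD, 0.705 (0.630 to 0.789) for HFD over chow and 0.817 (0.729 to 0.915) for DfCS-Ib over chow. In RPKM, Nr0b2 stood at 0.927, 0.927 and 1.21 times Nr1h4 in the DfCS-Ib, HFD and chow libraries.

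The Nr0b2 window is shown because its 4 motif matches are the most in any of the 16 windows; capitals mark the motifs.
Nr0b2, chr4:133553126-133553375, plus strand: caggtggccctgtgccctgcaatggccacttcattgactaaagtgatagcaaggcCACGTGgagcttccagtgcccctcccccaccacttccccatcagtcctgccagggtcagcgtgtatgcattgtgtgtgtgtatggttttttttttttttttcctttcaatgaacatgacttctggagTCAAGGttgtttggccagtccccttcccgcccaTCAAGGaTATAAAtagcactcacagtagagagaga
CACGTG begins 195 bases before the start, TCAAGG, the sequence that LRH-1 sites share, begins 68 and again 35 bases before it, and TATAAA begins 28 bases before it. TCAAGG was found in 12.5% and CACGTG in 6.02% of all windows, and no other window of the 10 genes holds TCAAGG.

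Target genes of FXR and SHP did not share a direction. Of 6 induced genes 4 were analysed, Nr0b2 among them. In DfCS-Ib over HFD 1 was at least 2-fold higher and 1 lower (2.46% and 2.02% of all analysed genes). In HFD over chow 2 were higher and 0 lower (3.47% and 2.27%). The 1 higher gene in DfCS-Ib over HFD, Abcb4, had a ratio of 2.03 and was no longer counted without TMM factors, with the authors' RPKM, with the 50 most abundant genes left out of the totals or when the counting interval had to lie past 2-fold. Abcb11, the bile salt export pump gene, had 589, 936 and 419 CPM in the DfCS-Ib, HFD and chow libraries, and Osgin1 had 67.1, 186 and 71.4 CPM, both highest in the HFD library where Nr0b2 was lowest. Abcb4, which flips phosphatidylcholine into bile, lay the other way with 595, 293 and 506 CPM. Of the genes that SHP represses, Cyp7a1, whose enzyme sets the pace of bile acid synthesis, had 79.5, 39.6 and 111 CPM and Cyp8b1, the sterol 12-alpha-hydroxylase gene, had 758, 415 and 872 CPM. Both were lowest in the HFD library, as Nr0b2 was, and both passed 2-fold in HFD over chow, but only 1 of them did without TMM factors or with RPKM. Slc10a1, the bile salt uptake transporter gene, was highest there, with 579, 703 and 529 CPM.

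Nr1i2, on chromosome 16 (38248321 to 38294851, minus strand), encodes PXR, and Nr1i3, on chromosome 1 (171213935 to 171218845, plus strand), encodes CAR; both sense drugs and bile acid products and induce cytochromes P450. Nr1i2 had 1326, 1192 and 1055 counts in the DfCS-Ib, HFD and chow libraries, or 124, 92.6 and 98.04 CPM. The DfCS-Ib library was the highest, at 1.33 (1.23 to 1.44) times HFD and 1.26 (1.16 to 1.37) times chow, and the HFD and chow libraries did not differ beyond counting error, at 0.945 (0.869 to 1.03). Nr1i3 had 1473, 1716 and 1492 counts, or 137, 133 and 139 CPM, and no pair of libraries differed beyond counting error. Its ratio was 1.03 (0.960 to 1.10) for DfCS-Ib over HFD and 0.962 (0.897 to 1.03) for HFD over chow. The last 1044 bases of the Nr1i3 gene model overlap Tomm40l on the opposite strand, which had 930, 971 and 1056 counts. In GENCODE M21, 3304 of the 4414 exon bases of Nr1i3 are also exon of Tomm40l. The deposited Nr1i3 model is shorter, at 2347 bases, so that share is not the share of the counted model. Reads of a shared stretch cannot be told apart without a stated strand setting.

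Target genes of CAR and PXR varied widely beside these narrow receptor levels. Of 13 CAR targets 11 were analysed. In DfCS-Ib over HFD 2 were at least 2-fold higher and 1 lower (2.46% and 2.02% of all analysed genes). In HFD over chow 4 were higher and 2 lower (3.47% and 2.27%). Cyp2b10, the standard marker of CAR activation, had 28.9, 37.1 and 7.06 CPM in the DfCS-Ib, HFD and chow libraries, a ratio of 5.25 (4.11 to 6.78) for HFD over chow and 4.09 (3.17 to 5.33) for DfCS-Ib over chow. Cyp2c29 likewise had 2561, 3577 and 673 CPM. Both were above chow in the 2 libraries of the HFD. Por, the electron donor of microsomal P450 enzymes, went against them with 904, 177 and 754 CPM, and Gadd45b, a stress gene, had 62, 9 and 145 counts. The 7 PXR targets were all analysed, with 1 at least 2-fold higher and 1 lower in each of these comparisons, which have the same shares over all genes. Cyp3a11, the main PXR-induced cytochrome gene, had 4079, 3624 and 6057 CPM, and the organic anion transporter gene Slco1a4 had 204, 64.97 and 530 CPM, both highest in the chow library. Cyp2c55, listed under both receptors, had 34, 178 and 22 counts.

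Hnf4a, on chromosome 2 (163506809 to 163572907, plus strand), encodes HNF4 alpha, which sustains the expression of hepatocyte genes. It had 12729, 10448 and 14198 counts in the DfCS-Ib, HFD and chow libraries, or 1186, 812 and 1319 CPM. The HFD library was the lowest and the chow library the highest, with all 3 apart by more than counting error. The ratio was 1.46 (1.42 to 1.4997) for DfCS-Ib over HFD, 0.615 (0.600 to 0.631) for HFD over chow and 0.899 (0.878 to 0.921) for DfCS-Ib over chow. These ratios did not reach 2-fold; at 1.5-fold on CPM plus 1, Hnf4a was the one gene of the 10 that was lower in HFD than in chow, as were 7.72% of all genes. Its targets were mixed: of 12, all analysed, 1 was at least 2-fold higher and 0 lower in DfCS-Ib over HFD (2.46% and 2.02% of all analysed genes). In HFD over chow 0 were higher and 2 lower (3.47% and 2.27%). Without TMM factors or with the authors' RPKM, 0 were higher in DfCS-Ib over HFD and 1 was lower in HFD over chow. Apoa4, an apolipoprotein gene, had 597, 283 and 944 CPM in the DfCS-Ib, HFD and chow libraries, lowest in the HFD library as Hnf4a was. Apob had 18887, 14602 and 21361 CPM, again lowest in HFD, whereas Apoc3, Apoa2 and Ttr were highest there, with log2 ratios of 0.64, 0.53 and 0.72 for HFD over chow.

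The antisense gene Hnf4aos, a noncoding RNA gene on the minus strand (163493804 to 163541721) that was named after its values were seen, overlaps the first 34913 bases of the Hnf4a model. It ran against Hnf4a, with 37, 110 and 25 counts in the DfCS-Ib, HFD and chow libraries, a ratio of 0.403 (0.270 to 0.590) for DfCS-Ib over HFD and 3.68 (2.37 to 5.93) for HFD over chow. In GENCODE M21 (GRCm38) the exons of Hnf4a share 0 bases with those of another gene. Hnf4a has 2 listed starts, and their windows are shown because Hnf4aos spans the first, at 163506857, and ends before the second, at 163547155.
Hnf4a first start, chr2:163506607-163506856, plus strand: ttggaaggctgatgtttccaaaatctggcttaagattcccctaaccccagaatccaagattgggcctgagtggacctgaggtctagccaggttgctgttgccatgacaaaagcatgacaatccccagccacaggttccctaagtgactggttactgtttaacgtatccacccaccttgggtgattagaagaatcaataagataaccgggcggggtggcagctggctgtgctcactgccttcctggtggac
Hnf4a second start, chr2:163546905-163547154, plus strand: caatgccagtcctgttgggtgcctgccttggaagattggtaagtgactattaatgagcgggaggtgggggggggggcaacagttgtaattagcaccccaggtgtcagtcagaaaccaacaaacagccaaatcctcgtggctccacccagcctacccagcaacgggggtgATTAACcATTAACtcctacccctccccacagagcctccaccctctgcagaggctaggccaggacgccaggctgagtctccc
The second window holds GTTAAT on the reverse strand, beginning 81 and again 74 bases before the start, and the first holds none of the 7 motifs. GTTAAT occurs in 3 of the 16 windows of the 10 genes and in 6.43% of all windows.

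Nr5a2, on chromosome 1 (136842562 to 136960448, minus strand), encodes LRH-1, a phospholipid-binding receptor that supports bile acid synthesis and glucose sensing. It was as flat as Nr1h3 and Nr1i3, with 809, 928 and 838 counts in the DfCS-Ib, HFD and chow libraries, or 75.4, 72.1 and 77.9 CPM. No pair of libraries differed beyond counting error, and the ratios were 1.05 (0.95 to 1.15) for DfCS-Ib over HFD and 0.926 (0.843 to 1.02) for HFD over chow. Of its 7 targets, all analysed, 0 were at least 2-fold higher and 1 lower in DfCS-Ib over HFD (2.46% and 2.02% of all analysed genes). In HFD over chow 1 was higher and 2 lower (3.47% and 2.27%). The 2 that were lower in HFD than in chow were Cyp7a1 and Cyp8b1, of which 1 remained past 2-fold without TMM factors or with RPKM.

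**Figure D2:**
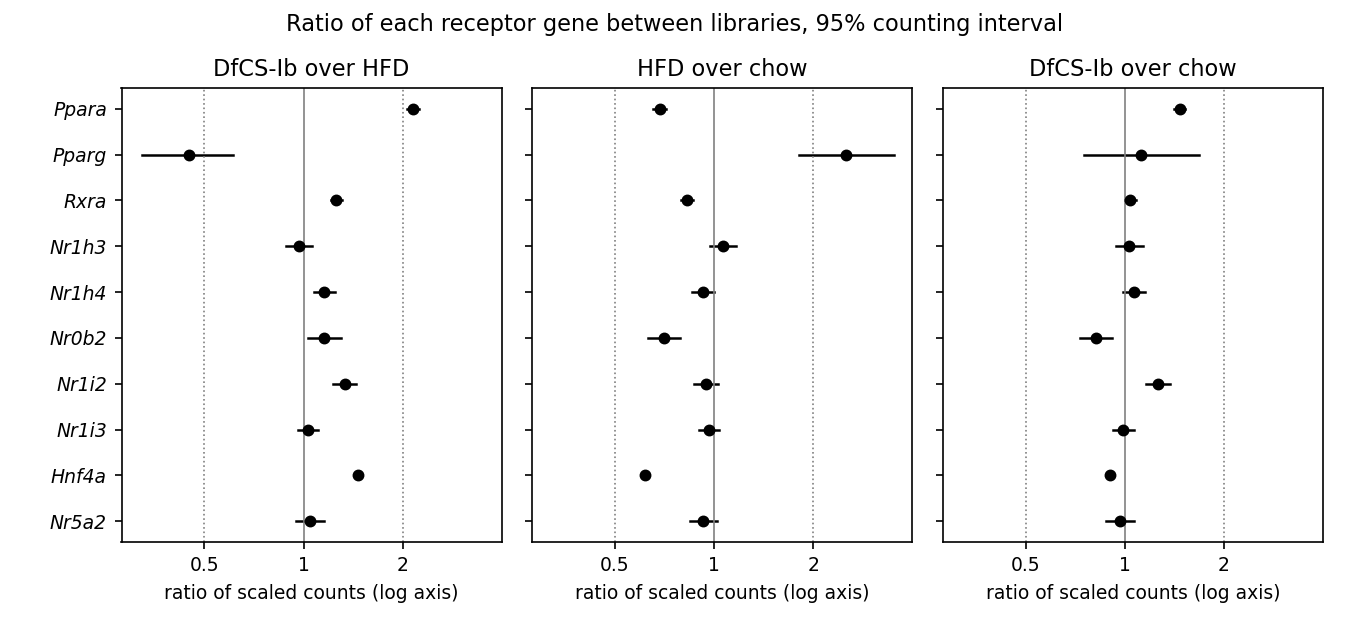
Ratio of scaled counts (log axis) of each of the 10 receptor genes for DfCS-Ib over HFD, HFD over chow and DfCS-Ib over chow; bars are exact 95% counting intervals, the solid line marks 1 and the dotted lines 2-fold. Ppara and Pparg pass 2-fold on opposite sides in DfCS-Ib over HFD, at 2.15 and 0.448.

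Across the 10 genes, 1 was at least 2-fold higher and 1 lower in DfCS-Ib over HFD, 1 was higher and 0 were lower in HFD over chow, and 0 were higher or lower in DfCS-Ib over chow. At 2-fold, DfCS-Ib over chow had 1.62% of all genes higher and 0.433% lower. Of all analysed genes, 4.49% passed 2-fold in either direction in DfCS-Ib over HFD, 5.74% in HFD over chow and 2.05% in DfCS-Ib over chow, so 1 or 2 of 10 genes is too few to set the receptors apart from the background. At 1.5-fold, 1 of the 10 genes was higher and 1 lower in DfCS-Ib over HFD, where 7.62% and 7.16% of all genes were, 14.8% together. In HFD over chow 1 was higher and 1 lower, where 10.4% and 7.72% of all genes were, 18.1% together. In DfCS-Ib over chow 0 were higher and 0 lower, where 5.69% and 3.06% of all genes were, 8.74% together. The median log2 ratio of the 10 genes was 0.21 for DfCS-Ib over HFD, -0.11 for HFD over chow and 0.05 for DfCS-Ib over chow, against -0.01, 0.02 and 0.00 for all genes. In DfCS-Ib over HFD 8 of the 10 ratios were above 1, but 6 without TMM factors or with the authors' RPKM. With TMM factors 6382 of the 13153 analysed genes lay above 1 there. In HFD over chow 8 of the 10 were below 1, but 6 without TMM factors or with RPKM. With TMM factors 6321 of the 13153 analysed genes lay below 1 there. Without TMM factors the median log2 ratio of all genes was -0.10 for DfCS-Ib over HFD and 0.11 for HFD over chow, a shift as large as the smaller receptor ratios. The split over all genes also depended on the scaling: 324 genes were at least 2-fold higher and 266 lower in DfCS-Ib over HFD, but 261 and 340 without TMM factors and 176 and 234 with RPKM, and 457 were higher and 298 lower in HFD over chow, but 404 and 166 with RPKM. Under the scalings tried, a ratio of Nr1i2, Nr1i3 and Nr5a2 each crossed 1 in at least 1 comparison, and no ratio of the other 7 genes did.

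**Figure D3:**
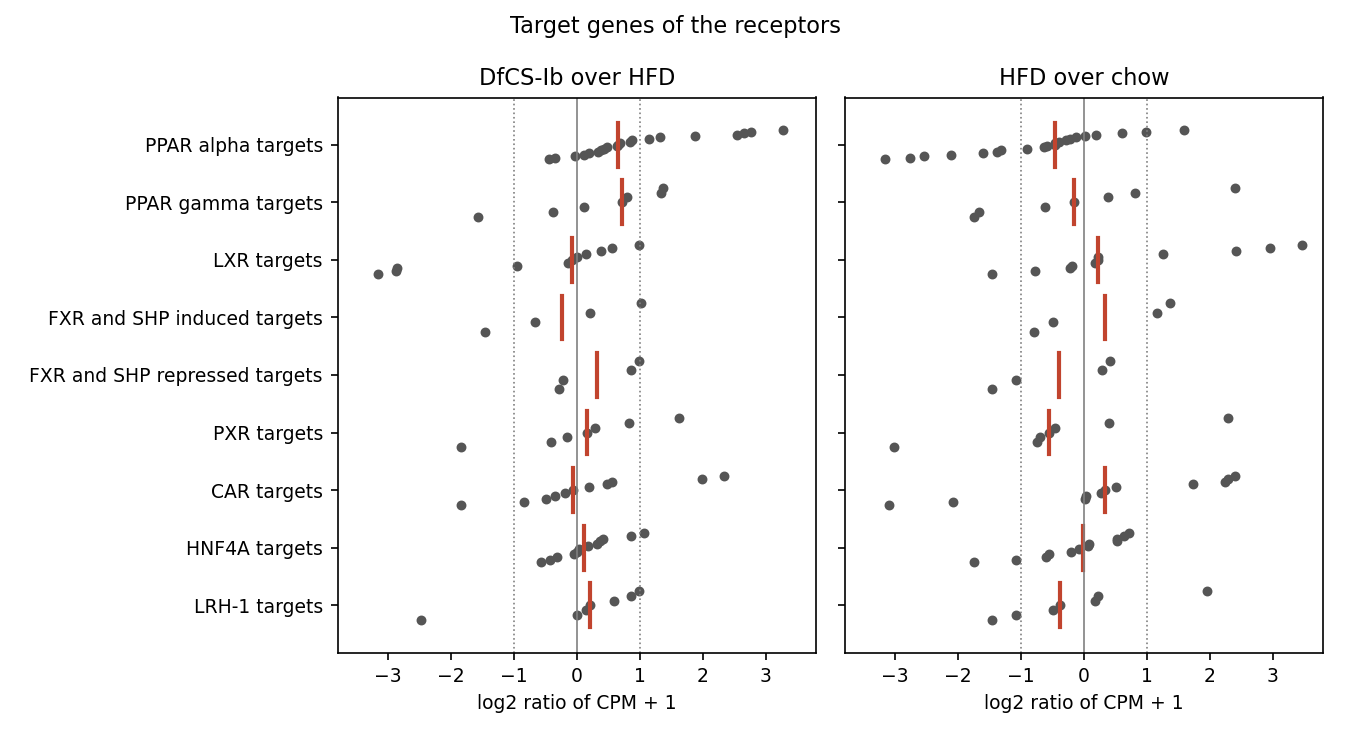
Log2 ratio of CPM plus 1 of the analysed target genes of each receptor, DfCS-Ib over HFD on the left and HFD over chow on the right; each point is a gene, the red bar is the list's median and dotted lines mark 2-fold. PPAR alpha targets have medians of 0.65 and -0.46, and the LXR targets below -2 on the left are Srebf1, Scd1 and Fasn.

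Of the 39 other nuclear receptor genes, 25 were analysed and 6 were listed at 0 in each library. In DfCS-Ib over HFD 2 were at least 2-fold higher and 2 lower (2.46% and 2.02% of all analysed genes). In HFD over chow 0 were higher and 1 lower (3.47% and 2.27%). The medians were -0.12 and 0.23. Nr1d1, which encodes the clock repressor REV-ERB alpha, had 97.03, 42.1 and 31.5 CPM in the DfCS-Ib, HFD and chow libraries, with a ratio of 2.30 (2.07 to 2.56) for DfCS-Ib over HFD and 3.08 (2.72 to 3.49) for DfCS-Ib over chow. The immediate early gene Nr4a1 had 41, 29 and 75 counts. Esrrb, with 20, 5 and 17 counts, was the other gene past 2-fold upwards in DfCS-Ib over HFD. Of these 25 genes 4 thus passed 2-fold in DfCS-Ib over HFD, where 4.49% of all analysed genes did. When the counting interval had to lie past 2-fold, 1 was higher and 0 were lower. The other receptors and the 10 genes were not tested against each other.

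Coregulators of nuclear receptors were described by 17 genes, all analysed. In DfCS-Ib over HFD 3 were at least 2-fold higher and 0 lower (2.46% and 2.02% of all analysed genes). In HFD over chow 0 were higher and 2 lower (3.47% and 2.27%). The medians were 0.24 and -0.25. With the authors' RPKM, 1 was higher in DfCS-Ib over HFD. Ppargc1a, which encodes the PPAR coactivator PGC-1 alpha, had 30.6, 11.1 and 33.6 CPM in the DfCS-Ib, HFD and chow libraries, a ratio of 2.75 (2.25 to 3.37) for DfCS-Ib over HFD. Lpin1, whose product lipin 1 is both a phosphatidate phosphatase and a coactivator of PPAR alpha, had 505, 132 and 297 CPM, a ratio of 3.82 (3.61 to 4.03). Ppargc1b, the gene of the related PGC-1 beta, had 29.5, 12.2 and 12.4 CPM, higher in the DfCS-Ib library than in both others. Ppara and the coactivator genes Ppargc1a and Lpin1 were each lowest in the HFD library. The corepressor gene Ncor1 and the mediator subunit gene Med1 differed by less than 1.5-fold, with log2 ratios of 0.20 and 0.34 for DfCS-Ib over HFD.

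**Figure D4:**
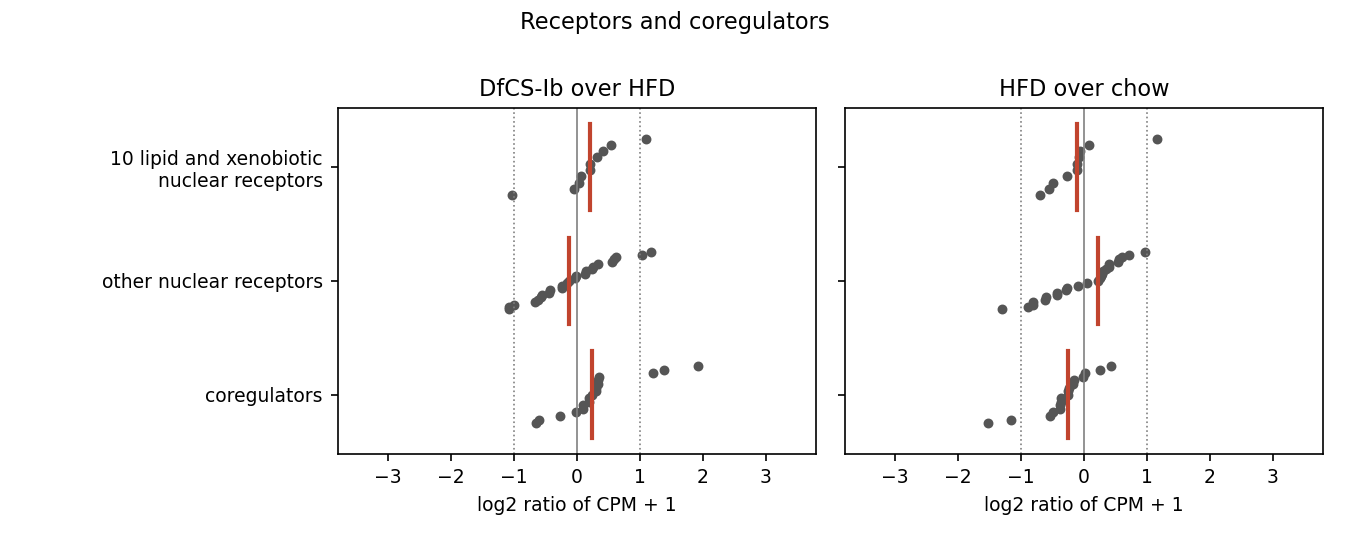
Log2 ratio of CPM plus 1 of the 10 receptor genes, 25 other nuclear receptor genes and 17 coregulator genes, DfCS-Ib over HFD on the left and HFD over chow on the right; each point is a gene, the red bar is the median and dotted lines mark 2-fold. The coregulator points above 1 on the left are Lpin1, Ppargc1a and Ppargc1b, at 1.92, 1.38 and 1.21.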

How the data were processed

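Liver RNA of 3 groups was sequenced, with 1 library each. For each of 41799 genes the authors deposited a raw count and an RPKM value, per the file headers, together with a gene position. No chromosome position was read for Angptl4 and Cps1. The submitters' processing notes name TopHat2 and mm10. Not given in the sources used here were the strand setting, the counting tool, the annotation release and the handling of multiply placed reads. Recomputing RPKM from count, length and file total gave the deposited values with differences of at most 0.000506% where the count was 100 or more.

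From the counts, TMM factors of 0.978, 1.048 and 0.976 for the DfCS-Ib, HFD and chow libraries were computed with edgeR 4.0.16 in R 4.3.3, on the whole table. Intervals of ratios are exact (Clopper-Pearson) at 95%. For a count of 0 the upper limit was taken as 3 counts, which is 0.280, 0.233 and 0.279 CPM in the same order. With 1 library per group no test was run. Of 207 entries in 20 gene lists, 1 was not matched (Adgre1, present under its older symbol Emr1). The ratio step was tested on simulated data.

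The 10 members and the lists were chosen with earlier results of these data known. Besides the members, the text names the 4 list genes with the largest log2 ratios past 2-fold and at least 20 counts, and a well-known target of each list. Cpt1a, Rxrg, Rxrb, Esrrb, Abcg5, Pltp, Slc10a1, Fabp1, Vnn1, Angptl4, Apoc3, Apoa2, Ttr, Alb, Apoa1, Serpina1a, Ncor1, Med1 and Hnf4aos were named after their values were seen. The same holds for Ppard, Adipoq, Plin1, Lep, Retn and Fabp4. Some genes that the rule picks are not reported here. Promoter windows are from RefSeq (GRCm38.p6). Near-identical genes, and overlapping genes such as Fgf21, Plin4, Srebf1, Pltp, Osgin1 and Por, are uncertain. Alternatives changed the scaling (none, DESeq2 1.42.0 size factors, RPKM), pseudocount, filter, abundant genes and call rule.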

Additional observations from a re-analysis of the deposited data

How the results depend on the processing

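The number of receptor genes at least 2-fold higher or lower rested on ratios near the mark. The 1 higher gene in DfCS-Ib over HFD, Ppara, became 0 on the authors' RPKM plus 1. The 1 lower gene there and the 1 higher gene in HFD over chow, both Pparg, became 0 on RPKM plus 1, with a pseudocount of 5 CPM, and when the counting interval itself had to lie past 2-fold. At 1.5-fold 1 gene, Hnf4a, was lower in HFD than in chow, against 0 at 2-fold. Of the recomputed counts of the 10 genes, 52 stayed the same and 8 moved, and of their recomputed ratios 136 stayed within the counting interval and 14 did not. For the gene lists, 585 recomputed counts stayed the same and 75 moved. Of Nr1i2, Nr1i3 and Nr5a2, each had a ratio that crossed 1 without TMM factors: Nr1i2 was 1.01 for HFD over chow, Nr1i3 0.961 for DfCS-Ib over HFD and 1.03 for HFD over chow, and Nr5a2 0.976 for DfCS-Ib over HFD. The ratio of Ppara for DfCS-Ib over HFD lay between 2.0 and 2.16 under the alternatives tried. No paired analysis was possible because each group has 1 library, and no library could be left out.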

Other observations

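Hnf4aos was set among the noncoding RNA genes whose symbol ends in os, for opposite strand, or in os and a digit. Of 23 such genes that were analysed, Hnf4aos included, 1 was at least 2-fold higher and 3 were lower in DfCS-Ib over HFD (2.46% and 2.02% of all analysed genes). In HFD over chow, 3 were higher and 1 lower (3.47% and 2.27%). The median log2 ratios were 0.00 and -0.01. Hnf4aos itself counts among the 3 lower and the 3 higher, with log2 ratios of -1.10 and 1.52.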
